A study of Mus musculus with 17 samples.

Results

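Chromatin accessibility of naive B cells (nB) was compared between Dnmt3-deficient (KO) and Dnmt3-sufficient (C) mice over all 66177 accessible regions of the deposited table. The comparison used 5 of the 16 libraries of the series that have values, 2 KO and 3 C, chosen by the cell type and genotype in their labels. KO mice carried 1 cre allele active in the B lineage together with floxed alleles of Dnmt3a and Dnmt3b (Dnmt3afl/fl Dnmt3bfl/fl). C mice were littermates with the same homozygous floxed alleles and no cre, so the groups shared the floxed alleles and differed by the cre allele as well as by the deletion, and the effects of these cannot be told apart. All were on a mixed background (B6;129S4-Dnmt3atm3.1Enl Dnmt3btm5.1Enl/Mmnc), entered the experiments at 8 to 12 weeks of age, and all 5 nB donors were unimmunized males. Each library was made by ATAC-seq, in which a transposase cuts open chromatin and attaches sequencing adapters, from 3000 to 5000 B220+ Fas- GL7- cells of the inguinal and periaortic lymph nodes of 1 mouse. Other cell types of the series are used for comparison. They were collected 30 days after mice received phycoerythrin (PE) under the skin, emulsified with complete Freund's adjuvant. Germinal center B cells (GCB) were sorted as PE-binding (B220+ Fas+ GL7+ PE+) and gave 2 C and 4 KO libraries. Each was a pool of 2 mice, and each genotype included female and male pools. Plasma cells from bone marrow (BMPC) gave 3 C and 2 KO libraries, from female mice. A further KO BMPC sample of the series has no values here and was not used. Values are reads in a region per 1000000 reads in all regions of the library (RPPM), and positions are in mm9.

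DNMT3A and DNMT3B place new methyl groups on cytosines of CpG dinucleotides, whereas DNMT1 copies existing methylation at replication. The cre is active from the early B cell stages in the bone marrow, and it deletes the exons that encode the catalytic PC and ENV motifs. A naive B cell is a resting cell that has completed antigen receptor rearrangement and has not met antigen. It is held in that state by lineage factors such as PAX5 and EBF1 and by quiescence factors such as KLF2 and FOXP1. After activation it can enter the germinal center, where BCL6 acts, or become an antibody-secreting plasma cell under BLIMP1 (Prdm1).

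Whole reads could be recovered for all values, and reads in regions totaled from 4104875 to 6079018 per nB library, so that 3 reads, taken as the floor, were worth from 0.494 to 0.731 RPPM. Molecules were not tagged before amplification, so reads can repeat a molecule and the floor covers counting error only. The naive B cell markers followed the sort. Summed over the regions nearest the start of 24 naive B cell genes, accessibility lay between 1085 and 1172 RPPM in the 5 nB libraries, between 699 and 853 RPPM in GCB and between 501 and 562 RPPM in BMPC. The corresponding sums in nB were 122 to 144 RPPM for 11 T cell genes, with 58.6 to 72.1 RPPM of it at Cd3d, 161 to 183 RPPM for 14 myeloid and dendritic cell genes and 14.3 to 19.5 RPPM for 8 natural killer cell genes. The T cell sums did not follow the sort, at 71.7 to 108.8 RPPM in GCB and 131 to 155 RPPM in BMPC. The myeloid and dendritic cell sums and the natural killer cell sums were lower in every nB library than in every GCB and BMPC library. For the naive B cell genes the C range in nB was 1085 to 1125 RPPM and the KO range 1144 to 1172 RPPM. For the T cell genes the C range was 122 to 135 RPPM and the KO range 139 to 144 RPPM. The sum over the germinal center genes, a list used below, was likewise higher in both KO libraries than in every C library. The myeloid and dendritic cell sums and the natural killer cell sums overlapped between genotypes. The part of these shifts in the differences between genotypes was not tested. The third C library stood apart in a stretch of chromosome 7, described below, and results that depend on 1 library are given with that library named. Each of these checks uses open chromatin and not expression, and fewer cells of a type cannot be told apart from less accessible chromatin per cell. The deletion itself was not read from the table, since the regions nearest the starts of both genes are promoters. The Dnmt3a promoter region (chr12:3890769-3891672) measured 27.3, 19.97 and 21.03 RPPM in C nB and 23.2 and 23.2 RPPM in KO nB, and the Dnmt3b promoter region (chr2:153474905-153476249) measured 36.8, 37.7 and 37.97 RPPM in C nB and 34.5 and 37.98 RPPM in KO nB.

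The sequences of the regions on which the comparison turns are shown first, 300 bases from the center of each, plus strand, in lower case with CpG dinucleotides in capitals. The first 3 are regions that differed between genotypes in every library, 1 lower in an intron of Lpin1, 1 lower in an intron of Birc3 and 1 higher upstream of Selplg. The fourth, far upstream of Arid1b, is shown because its sequence is a short repeat and its difference came mainly from 1 library. The whole regions hold 3, 2, 16 and 0 CpG, respectively.
Lpin1 (chr12:16561580-16561879): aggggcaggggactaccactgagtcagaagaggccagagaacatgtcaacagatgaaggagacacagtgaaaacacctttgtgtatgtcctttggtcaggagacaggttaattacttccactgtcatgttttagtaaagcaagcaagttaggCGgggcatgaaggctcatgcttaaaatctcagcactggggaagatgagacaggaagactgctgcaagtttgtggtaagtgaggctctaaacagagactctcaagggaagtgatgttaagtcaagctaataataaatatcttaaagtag
Birc3 (chr9:7868066-7868365): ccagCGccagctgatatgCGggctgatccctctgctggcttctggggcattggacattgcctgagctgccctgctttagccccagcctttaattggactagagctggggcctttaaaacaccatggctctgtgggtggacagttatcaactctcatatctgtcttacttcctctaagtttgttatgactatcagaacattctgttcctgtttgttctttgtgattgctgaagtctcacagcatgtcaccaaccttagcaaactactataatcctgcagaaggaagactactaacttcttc
Selplg (chr5:114291827-114292126): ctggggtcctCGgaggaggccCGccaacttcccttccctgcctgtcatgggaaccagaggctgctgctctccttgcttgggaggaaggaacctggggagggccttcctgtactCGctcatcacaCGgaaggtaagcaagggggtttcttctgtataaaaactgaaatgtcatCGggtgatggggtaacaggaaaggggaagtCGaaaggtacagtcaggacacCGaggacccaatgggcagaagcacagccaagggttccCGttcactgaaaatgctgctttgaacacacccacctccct
Arid1b (chr17:4626235-4626534): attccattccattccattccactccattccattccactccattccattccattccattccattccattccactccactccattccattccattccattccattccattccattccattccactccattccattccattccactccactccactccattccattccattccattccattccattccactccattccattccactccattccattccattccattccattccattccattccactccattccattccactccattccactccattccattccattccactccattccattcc

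To ask whether loss of DNMT3A and DNMT3B altered the naive landscape, KO nB was compared with C nB across all regions with limma on log2(RPPM + 1), and a region was called at a Benjamini-Hochberg adjusted p of at most 0.01 and at least a 2-fold difference. Fold changes on this scale understate the change of regions with low values. No region was called higher (0 of 66177, 0.0%) or lower (0 of 66177, 0.0%). The lowest adjusted p was 1 (limma). Without adjustment, 417 regions (0.63%) had a p under 0.05 and a higher value in KO nB and 690 (1.04%) a lower one, 1.67% of regions in all. With the spread estimated from the 5 nB libraries alone these numbers were 1332 and 1927, again with no region called. Tests of the recovered reads called a few regions by the same limits. The likelihood ratio test of edgeR called 5 higher (0.00756%) and 5 lower (0.00756%), and its quasi-likelihood test 3 higher (0.00453%) and 4 lower (0.00604%). DESeq2 called 0 higher (0.0%) and 1 lower (0.00151%), and limma-voom likewise 0 higher (0.0%) and 1 lower (0.00151%). By edgeR, then, 11 regions were called at least once, 5 higher and 6 lower in KO nB.

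The difference between genotypes was small over most of the landscape. The median log2 difference was -0.01 and its SD across regions was 0.25. The SD was 0.39 in GCB, where depth and number of libraries differ. In BMPC it was 0.38, with 3 C and 2 KO libraries as in nB and 5357687 to 8232313 reads in regions per library. For 48914 regions (73.9%), the 95% confidence interval of the difference lay within 2-fold in either direction. How narrowly a region could be bounded depended on its level. Of the 10348 regions with a mean of 30 RPPM or more in nB, 99.8% had an interval within 2-fold, and the SD of their log2 differences was 0.11. Of the 12289 regions between 10 and 30 RPPM this share was 95.9%, and of the 19230 between 3 and 10 RPPM it was 75.7%. Below 3 RPPM about 1 in 2 regions was bounded in this way (49.7% of 13515 regions between 1 and 3 RPPM and 51.1% of 10795 under 1 RPPM). There the added 1 RPPM itself draws differences toward 0, so these intervals do not exclude a 2-fold difference in RPPM. For the remainder a 2-fold difference was not excluded on either scale. The number of regions bounded depended on this constant, at 29323 with 0.1 RPPM added and 66057 with 5 RPPM added. With the spread estimated from the 5 nB libraries alone it was 58627. The estimated difference reached 2-fold in 145 regions, 73 higher and 72 lower, and 2 of these, both higher, had a mean of 30 RPPM or more.

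**Figure D1:**
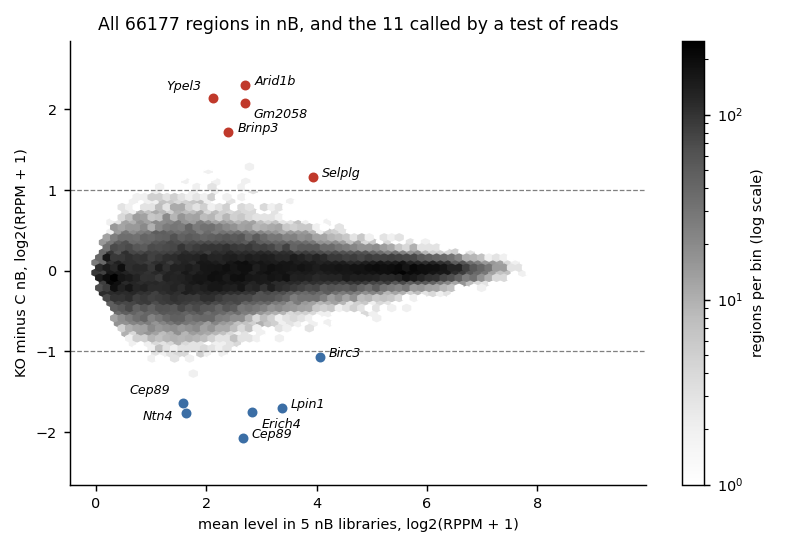
Each hexagon counts regions by their mean level in the 5 nB libraries (horizontal axis, log2(RPPM + 1)) and the KO minus C difference (vertical axis, log2(RPPM + 1)), with dashed lines at 2-fold. The 11 labelled points are the regions called by edgeR, red for higher and blue for lower in KO nB, and the SD of the difference is 0.27 under 1 RPPM, widest at 0.34 between 1 and 3 RPPM and 0.11 at 30 RPPM or more.

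The most accessible regions outside the mitochondrial chromosome illustrate this stability. The Ywhaz region (chr15:36722092-36724657), at a gene for a 14-3-3 adaptor protein, measured 215, 204 and 203 RPPM in C nB and 205 and 205 RPPM in KO nB. The Ube2d3 region (chr3:135100740-135102637), at a gene for a ubiquitin-conjugating enzyme, measured 202, 223 and 206 RPPM in C nB and 205 and 221 RPPM in KO nB. The groups overlapped in both, and limma estimated log2 differences of -0.01 ± 0.09 and 0.02 ± 0.08 (SE). Promoters differed least. The SD of the log2 difference was 0.18 over 14332 promoter regions, with 91.3% bounded within 2-fold, and 0.26 to 0.27 over exon, intron and intergenic regions. Promoter regions were also more open, with a median of 30.9 RPPM in C nB against 3.57 to 4.02 RPPM in the other classes, so class and level moved together. Regions with 4 or more CpG per 100 bases, most of them as open as promoters (median 33.9 RPPM in C nB), had an SD of 0.18, a median log2 difference of -0.01 and 0.293% of regions higher and 0.817% lower at an unadjusted p under 0.05. Regions with fewer than 1 CpG per 100 bases had a median of -0.04, with 0.42% higher and 1.09% lower. Between 2 and 4 CpG per 100 bases the shares were 1.1% and 1.07%. Since the median level also differed across these groups, the part of CpG density was not tested.

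Variation among the C libraries set the scale for these differences. Over the 33285 regions whose mean was 5 RPPM or more, log2 differences between 2 C libraries had an SD of 0.26 to 0.32, and those between a C and a KO library an SD of 0.27 to 0.32. The KO pair had an SD of 0.27. Counting error alone gives 0.21 to 0.24 at these depths. The pairs of C libraries differed by 2-fold or more at 77 to 242 regions, the C and KO pairs at 118 to 238 and the KO pair at 99. The first and second C libraries were the most unlike pair by this count, and the second and the third the most alike. In all, every KO library lay above every C library in 6205 regions (9.38%) and below in 7268 regions (11.0%), and these shares are the background for each statement below that the groups did not overlap. With 3 against 2 libraries, an exact permutation test of a single region cannot give a two-sided p under 0.1.

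The clearest difference in KO nB was a loss of accessibility at Lpin1, which encodes lipin 1, a phosphatidate phosphatase of lipid synthesis that also acts as a transcriptional coactivator. The intron region chr12:16561447-16562012, 34.8 kb downstream of the transcription start, measured 12.2, 14.3 and 13.4 RPPM in C nB and 3.62 and 3.15 RPPM in KO nB. Both KO libraries lay far below all C libraries, at a ratio of KO to C means of 0.254, and the log2 difference was -1.71 ± 0.35 (SE, limma, unadjusted p = 4.3e-05). The adjusted p was 2.9e-07 by edgeR's likelihood ratio test, 0.00069 by its quasi-likelihood test, 0.0086 by DESeq2 and 0.0028 by limma-voom. This was the only region called by all 4 of these tests, and the only one that edgeR's likelihood ratio test still called when any 1 of the 5 libraries was left out.

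The intron region was the end of a run of less accessible regions 3′ of the gene. Over windows of 1 Mb, the window at 16 Mb of chromosome 12 held more regions at an unadjusted p under 0.05 than any other, 10 of 51 (8 lower and 2 higher), and the next windows held 6. The 8 lower regions lay within 180.6 kb, among 14 regions from chr12:16381397 to 16562012, and the stretch was chosen for these differences, so its values are a description. Summed over all 14 regions, accessibility was 246, 241 and 251 RPPM in C nB and 159 and 169 RPPM in KO nB. Both KO libraries lay below all C libraries in 10 of the 14 regions, and the log2 difference was above 0 in 2 (0.42 at chr12:16511034-16511236 and 0.10 at chr12:16513933-16514610). The largest of the 8 by level, chr12:16390066-16391759, lies 205.7 kb downstream of the start and measured 116, 100.2 and 108 RPPM in C nB and 77.97 and 81.9 RPPM in KO nB (-0.43 ± 0.10, SE, limma, unadjusted p = 0.00031). Its sequence shares 20 or more words of 24 bases with 775 other regions, and reads from near-identical copies cannot be placed with certainty. The pair of regions annotated as Lpin1 promoter measured 24.6, 15.8 and 13.03 RPPM in C nB and 18.9 and 19.9 RPPM in KO nB and 24.1, 25.6 and 23.6 RPPM in C nB and 20.9 and 26.6 RPPM in KO nB, with overlapping groups. Within 250 kb on either side of the start there were 25 regions, of which 13 had both KO libraries below all C libraries and 1 had both above. Lpin1 lies 12.8 Mb from Dnmt3a on the same chromosome. Both genotypes carried the floxed Dnmt3a allele, and whether the mice differed in sequence around Lpin1 was not tested.

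In the other cell types the sums over the 14 regions overlapped between genotypes, at 176 and 198 RPPM in C GCB and 171 to 206 RPPM in the 4 KO GCB libraries, and at 115 to 129 RPPM in C and 123 and 131 RPPM in KO BMPC. Single regions could still differ. All KO libraries lay below all C libraries in 2 of the 14 regions in GCB and in 1 in BMPC. One of the 8 regions lower in KO nB, chr12:16481056-16481296, was also lower in KO GCB (3.08 and 4.68 RPPM in C and 2.203, 0.636, 1.32 and 1.398 RPPM in KO GCB; log2 difference -1.05, limma, unadjusted p = 0.0062). The intron region itself measured 9.24 and 3.75 RPPM in C and 4.41, 10.8, 5.699 and 8.39 RPPM in KO GCB and at most 0.747 RPPM in any BMPC library, which leaves little to lose there. The difference between the genotype effects in nB and GCB at this region had an unadjusted p of 0.00054 and an adjusted p of 0.70 (limma interaction), so the effect was not called particular to nB.

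**Figure D2:**
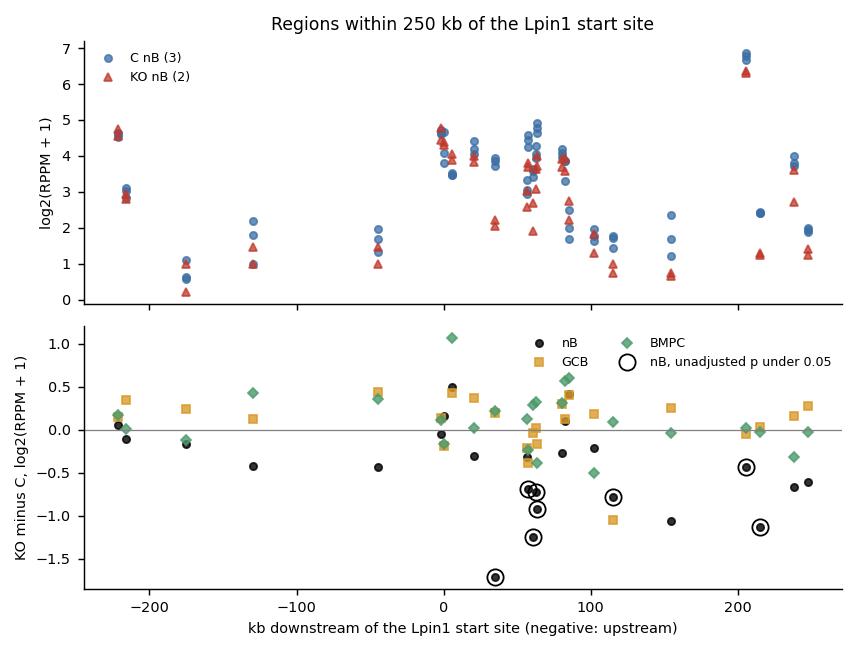
Regions within 250 kb of the Lpin1 start site, by distance downstream of it in kb (negative values are upstream). The upper panel gives each nB library as log2(RPPM + 1), circles for 3 C and triangles for 2 KO libraries, and the lower panel gives the KO minus C difference in nB, GCB and BMPC, with rings around the 8 regions at an unadjusted p under 0.05 in nB, which lie from 34.8 to 215.0 kb downstream.

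Birc3 encodes cIAP2, a ubiquitin ligase that restrains noncanonical NF-κB signaling and cell death. Its intron region chr9:7868054-7868377, 4.97 kb downstream of the start, measured 20.95, 20.9 and 18.4 RPPM in C nB and 9.21 and 8.86 RPPM in KO nB. The KO values lay close together at less than 1 in 2 of the C values. The log2 difference was -1.07 ± 0.23 (SE, limma, unadjusted p = 5.8e-05), and the adjusted p was 0.00013 by edgeR's likelihood ratio test and 0.058 by DESeq2. With either KO library left out the edgeR adjusted p was 0.047 or 0.063, so the call needed both. In the other cell types this region had levels between 5.71 and 14.0 RPPM, with overlapping genotypes in BMPC (6.89, 7.298 and 8.25 RPPM in C and 5.71 and 7.47 RPPM in KO BMPC) and log2 differences of 0.33 in GCB and -0.17 in BMPC.

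Other lower regions were found among the 10 with the smallest p in which the groups did not overlap and the higher group had a mean of at least 3 RPPM. None of these passed a test of reads unless stated. The Il21r promoter region chr7:132745078-132745426, 1.69 kb upstream of the gene for the receptor of the helper T cell cytokine IL-21, measured 7.55, 5.84 and 7.63 RPPM in C nB and 2.797 and 2.76 RPPM in KO nB. Its log2 difference was -1.08 ± 0.26 (SE, limma, unadjusted p = 0.00031). In BMPC it measured 4.03, 2.74 and 3.58 RPPM in C and 1.09 and 1.12 RPPM in KO BMPC, a log2 difference of -1.07 (limma, unadjusted p = 0.00034), and in GCB the difference was -0.42 (limma, unadjusted p = 0.10). The next was an intron region of Slc5a9, a gene for a sodium-coupled sugar transporter (chr4:111558617-111559430), measured 13.9, 11.7 and 13.4 RPPM in C nB and 5.76 and 5.51 RPPM in KO nB with an adjusted p of 0.012 by edgeR's likelihood ratio test, above the limit of 0.01. An intron region of Pan3, which encodes a subunit of a poly(A) deadenylase (chr5:148288349-148289173), measured 22.4, 20.7 and 22.5 RPPM in C nB and 13.5 and 11.2 RPPM in KO nB. A region 36.6 kb downstream of the start of Prdx6, a peroxiredoxin gene (chr1:163144522-163145051), measured 4.39, 4.14 and 5.397 RPPM in C nB and 1.65 and 1.57 RPPM in KO nB. In these 3 the KO libraries lay close together and below every C library. The remaining regions of this kind were in an intron of Bre and 30.5 kb from the listed start of 9230109A22Rik. The Bre region measured 9.26, 2.64 and 4.28 RPPM in C nB and 0.494 and 1.57 RPPM in KO nB. The region near 9230109A22Rik measured 7.55, 6.03 and 6.51 RPPM in C nB and 2.797 and 3.94 RPPM in KO nB.

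A further 4 lower regions were called by edgeR but varied among the C libraries as well. The exon region of Cep89, a centrosomal protein gene (chr7:36200914-36201644, listed as Ccdc123 in the reference annotation), measured 0.244, 9.98 and 15.4 RPPM in C nB and 0.165 and 0.787 RPPM in KO nB, and a neighboring intron region (chr7:36200253-36200565) measured 0.487, 2.26 and 7.07 RPPM in C nB and 0 and 0.197 RPPM in KO nB. In both, the first C library was near the KO level while the other C libraries were high. The same held for an intron region of Ntn4, a netrin gene (chr10:93160634-93161041), with 0, 4.71 and 5.77 RPPM in C nB and 0 and 0 RPPM in KO nB, and for a region 21.8 kb from Erich4 (chr7:26378596-26379143), with 1.95, 10.7 and 15.1 RPPM in C nB and 1.15 and 1.77 RPPM in KO nB. The first C library was also the shallowest of the 5. Without it, the adjusted p of edgeR's likelihood ratio test fell to between 7.3e-06 and 8.0e-19 at these 4 regions. With either KO library left out it was above 0.01 at the Cep89 intron, Ntn4 and Erich4 regions, and at the Cep89 exon it was above 0.01 without the first KO library. In these 4 regions the C mice differed among themselves as much as from the KO mice.

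Of the 5 regions called higher in KO nB by edgeR, the one nearest Selplg had the KO libraries closest together. Selplg encodes PSGL-1, the selectin ligand that leukocytes use to roll on vessel walls. The region chr5:114291673-114292279 is intergenic, 11.5 kb upstream of the Selplg start in the reference annotation and 640 bases upstream of a start site that the table lists without a symbol. It measured 7.31, 9.98 and 10.6 RPPM in C nB and 22.2 and 21.3 RPPM in KO nB, at a ratio of means of 2.34. The log2 difference was 1.16 ± 0.39 (SE, limma, unadjusted p = 0.0059), and the adjusted p was 0.00013 by edgeR's likelihood ratio test. With either KO library left out it was 0.051 or 0.028. The same region differed in BMPC, with 2.47, 0.912 and 1.401 RPPM in C and 9.72 and 12.3 RPPM in KO BMPC, a log2 difference of 2.25 (limma, unadjusted p = 3.4e-06, edgeR likelihood ratio adjusted p = 3.8e-16). In GCB it measured 0.8797 and 4.68 RPPM in C and 7.71, 5.09, 2.19 and 4.89 RPPM in KO GCB, where the groups overlapped (log2 difference 0.78, limma, unadjusted p = 0.042). The differences between these effects were not called (limma interaction, adjusted p = 0.95 for GCB and 0.97 for BMPC).

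**Figure D3:**
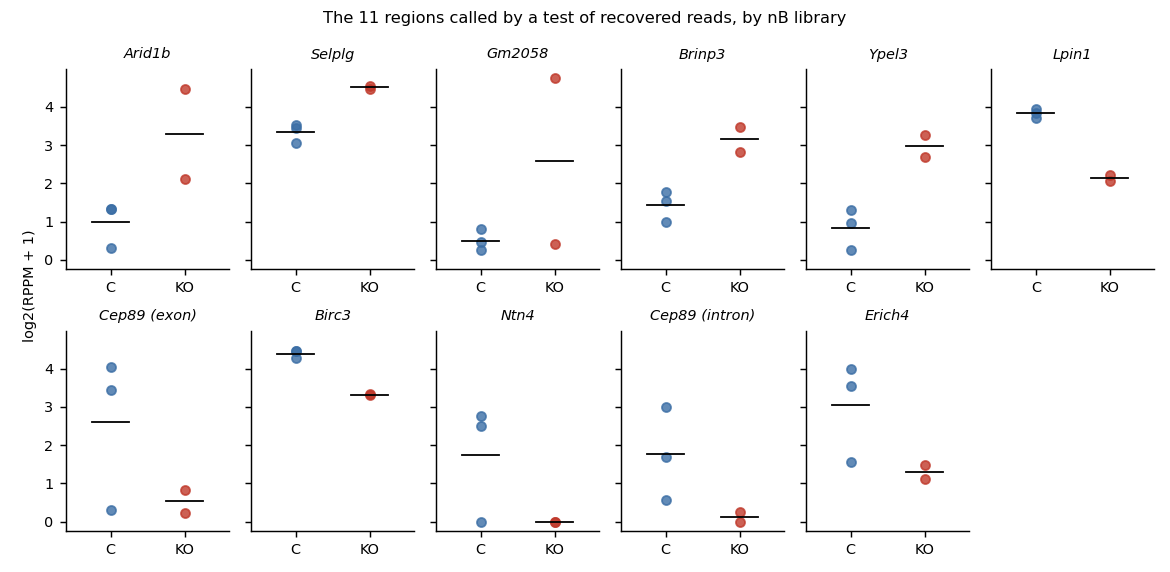
Values of the 11 regions called by edgeR in the 5 nB libraries, as log2(RPPM + 1), with C in blue, KO in red and a black bar at each group mean. At Lpin1, Birc3 and Selplg the libraries of a genotype lie together, whereas Gm2058 and Arid1b are high in 1 KO library and Cep89, Ntn4 and Erich4 are low in 1 C library.

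In the other 4 regions called higher, the KO libraries were further apart. With 1 library left out at a time, edgeR's likelihood ratio test kept its call in 3 of 5 fits at Selplg, Brinp3 and Gm2058, in 4 at Arid1b and in 1 at Ypel3. The region chr1:148652974-148653503, assigned to Brinp3 and within an intron of Fam5c and an exon of the noncoding transcript A230059L01Rik in the reference annotation, measured 0.974, 1.88 and 2.42 RPPM in C nB and 10.03 and 6.101 RPPM in KO nB (edgeR likelihood ratio adjusted p = 0.00025, and 0.34 without the first KO library). An intron region of Gdpd3, 3.27 kb upstream of Ypel3 (chr7:133916904-133917219), measured 1.46, 0.188 and 0.931 RPPM in C nB and 5.43 and 8.66 RPPM in KO nB. It remained called without the first C library only. The region chr7:46910411-46911303, 67.0 kb from Gm2058, measured 0.731, 0.377 and 0.186 RPPM in C nB and 0.329 and 25.8 RPPM in KO nB. It was high in the second KO library alone, and without that library its log2 difference was -0.089. The region chr17:4626180-4626588, 368 kb upstream of Arid1b, measured 0.244, 1.51 and 1.49 RPPM in C nB and 3.29 and 21.1 RPPM in KO nB, and its adjusted p by edgeR's likelihood ratio test was 0.00013 with all libraries and 0.97 without the second KO library.

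The sequence of the Arid1b region, shown above, holds 62 copies of ATTCC in its 409 bases. It was searched for with words of 24 bases on both strands in the 65891 regions on chromosomes 1 to 19, X and Y. At least 20 of its words were shared by 8 other regions, on chromosomes 1, 2, 6, 7, 9 and 17, which held at least 11 copies of ATTCC on 1 strand. Regions with 10 or more copies made up 0.0152% of all those searched (10 regions, 9 of them these). All 9 were highest in the second KO nB library. Their summed accessibility was 3.65, 8.85 and 5.58 RPPM in C nB and 12.2 and 59.8 RPPM in KO nB, from 5.15 to 14.3 RPPM in GCB and from 0.933 to 6.89 RPPM in BMPC. All 9 regions were thus highest in the same library, and reads from near-identical copies cannot be placed with certainty.

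The Brinp3 and Gm2058 regions also shared sequence with each other, an unbroken run of 119 bases on opposite strands. Together with 139 other regions that shared at least 20 words with either, they form a repeated family of 141 regions. Its summed accessibility overlapped between genotypes, at 934, 877 and 840 RPPM in C nB and 896 and 951 RPPM in KO nB. The median log2 difference over the family was 0.12, with 3 regions (2.13%) higher and 0 lower at an unadjusted p under 0.05, beside a median of -0.01, 0.63% higher and 1.04% lower over all regions. The 3 include the Brinp3 and Gm2058 regions, from which the family was built after their values were seen, so that 1 other region was higher. Of the 26 regions described here as shifted, 19 shared 20 words with no other region, among them the Lpin1 intron, Birc3 and Selplg regions. The 7 that did were the Arid1b, Brinp3 and Gm2058 regions, the Lpin1 region 205.7 kb downstream, the region near 9230109A22Rik (739 others), the Hivep2 region (185 others) and the Lrrc8d region (2 others).

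The higher regions with the smallest p that no test of reads called were mostly distal or intronic. An intron region of Hivep2, a gene for a zinc finger protein that binds NF-κB-like motifs (chr10:13702249-13703226), measured 21.4, 21.5 and 32.2 RPPM in C nB and 54.6 and 38.97 RPPM in KO nB. Its log2 difference was 0.88 ± 0.20 (SE, limma, unadjusted p = 0.00019). By edgeR's likelihood ratio test its adjusted p was 0.00013, but the change fell short of 2-fold. A region 3.78 kb upstream of Lrrc8d, a subunit of volume-regulated anion channels (chr5:106124971-106125443), measured 7.06, 8.48 and 8.37 RPPM in C nB and 13.5 and 15.5 RPPM in KO nB. A region 4.06 kb upstream of Btg2, an antiproliferative gene (chr1:135979588-135979929), measured 3.65, 4.898 and 4.28 RPPM in C nB and 9.87 and 8.66 RPPM in KO nB, and in BMPC 7.02, 4.74 and 5.76 RPPM in C and 10.3 and 14.7 RPPM in KO BMPC (log2 difference 0.98, limma, unadjusted p = 0.0015). In these the KO libraries lay above every C library by less than the difference at Selplg. Within an intron of Ezr, which encodes ezrin, a linker of membrane and actin (chr17:6950389-6950628), a region measured 0.487, 2.45 and 2.23 RPPM in C nB and 4.44 and 5.31 RPPM in KO nB. Together with the Selplg region it was one of the regions named here whose difference had an unadjusted p under 0.05 and the same direction in all 3 cell types, with log2 differences (limma) of 1.20, 1.33 and 0.82 for nB, GCB and BMPC. In GCB it measured 2.64 and 3.28 RPPM in C and 6.61, 11.5, 7.45 and 11.2 RPPM in KO GCB and in BMPC 1.95, 2.01 and 3.58 RPPM in C and 5.71 and 4.48 RPPM in KO BMPC. The others were a Gnptab intron region with 5.85, 4.898 and 3.35 RPPM in C nB and 8.06 and 9.84 RPPM in KO nB, a region 10.4 kb upstream of Trp53i11 with 1.46, 1.130 and 2.79 RPPM in C nB and 3.62 and 4.13 RPPM in KO nB, an Lpp intron region with 2.92, 0.942 and 0.372 RPPM in C nB and 4.77 and 4.92 RPPM in KO nB and a region 111.9 kb upstream of Bach2 with 0.244, 1.51 and 1.49 RPPM in C nB and 4.61 and 2.16 RPPM in KO nB.

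Counted over the 26 regions named above as shifted, 13 higher and 13 lower, 13 were intronic, 11 intergenic, 1 exonic and 1 in a promoter. The higher regions had a median of 2.34 CpG per 100 bases (range 0 to 4.53) and the lower regions a median of 1.28 (range 0.53 to 1.97), beside 1.46 over all regions. In BMPC, 6 of the 26 differed in the same direction at an unadjusted p under 0.05 and 1 in the opposite direction, beside 6.96% higher and 2.59% lower over all regions at that limit. In GCB these numbers were 3 and 1, beside 7.45% higher and 4.34% lower over all regions. No difference between the genotype effect in nB and that in GCB or BMPC was called by limma over all regions, and the lowest adjusted p of that interaction among the 26 was 0.60 for GCB and 0.25 for BMPC. Across the 41867 regions whose mean was 3 RPPM or more, the log2 differences in nB had a Pearson correlation of 0.03 with those in GCB and of 0.07 with those in BMPC, where the points share the table, the scaling and, within a cell type, the libraries.

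To describe the programs of the naive cell, regions were assigned to 15 gene lists by the nearest gene, and no region of any list was called by limma or by edgeR's likelihood ratio test. Median log2 differences of the lists ran from -0.05 to 0.05, beside -0.01 over all regions. Of 348 regions of the naive B cell markers, 6 (1.72%) were higher and 0 (0.0%) lower at an unadjusted p under 0.05, and 282 (81.0%) were bounded within 2-fold. The shares over all regions were 0.63%, 1.04% and 73.9%. Among the higher regions, an intron region of Pax5, the B lineage identity factor (chr4:44571190-44571572), measured 2.68, 3.39 and 3.91 RPPM in C nB and 7.896 and 8.66 RPPM in KO nB (limma, unadjusted p = 0.0076). An intron region of Bach2, a repressor of plasma cell differentiation (chr4:32438985-32439144), measured 0.731, 2.26 and 1.12 RPPM in C nB and 3.29 and 4.72 RPPM in KO nB. A region in an Ebf1 intron (chr11:44650667-44650928) measured 0.974, 1.51 and 2.05 RPPM in C nB and 3.62 and 3.54 RPPM in KO nB. In each of the 3 the KO libraries lay above the C libraries without a call. The promoter of Ccr7, the chemokine receptor that brings naive cells to the lymph node, measured 57.01, 64.1 and 59 RPPM in C nB and 60.9 and 56.7 RPPM in KO nB, with overlapping groups.

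Of 379 regions of quiescence factors, 4 (1.06%) were higher and 5 (1.32%) lower at an unadjusted p under 0.05. Foxp1 encodes a forkhead factor that keeps mature follicular B cells resting. Its intron region chr6:99044625-99046825 measured 48.7, 49.5 and 50.4 RPPM in C nB and 38 and 37.4 RPPM in KO nB, a log2 difference of -0.39 ± 0.12 (SE, limma, unadjusted p = 0.0035). The Tsc22d3 promoter, at the gene for the glucocorticoid-induced leucine zipper, measured 43.4, 38.6 and 42.6 RPPM in C nB and 31.3 and 31.5 RPPM in KO nB. In both, the KO libraries lay below every C library by less than 2-fold. The Klf2 promoter, at the factor that sustains naive cell homing, measured 70.4, 84.8 and 79.7 RPPM in C nB and 72.2 and 83.8 RPPM in KO nB, with overlapping groups.

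Genes of the germinal center and plasma cell programs, and of other B cell subsets, were counted in the same way. Over all regions, 0.63% were higher and 1.04% lower at an unadjusted p under 0.05. The numbers higher and lower were 1 and 1 of 135 (0.741% each) for germinal center genes and 1 and 1 of 182 (0.549% each) for plasma cell genes. They were 0 and 0 of 116 for marginal zone and B-1 cell genes, and 2 (1.4%) and 0 of 143 for the genes that the study discusses in Dnmt3-deficient plasma cells. The last list was chosen by the study on related data and is not independent of it. At the Prdm1 promoter nB measured 39.5, 42.6 and 51.4 RPPM in C nB and 45.2 and 52.9 RPPM in KO nB, and at the Bcl6 promoter 58.7, 53.5 and 49.3 RPPM in C nB and 58.9 and 54.5 RPPM in KO nB. Both promoters were open in both genotypes, with overlapping values. A region 200.5 kb upstream of Prdm1 (chr10:44448827-44449114), with 0.244, 2.45 and 0.931 RPPM in C nB and 2.797 and 3.35 RPPM in KO nB, was the 1 plasma cell region higher (limma, unadjusted p = 0.017). Among genes that methylate or demethylate DNA or read methylation, 0 of 113 regions were higher and 1 was lower, a region 274.4 kb upstream of Tet2 with 0.731, 3.203 and 2.42 RPPM in C nB and 0.165 and 0.984 RPPM in KO nB, where the groups overlapped. The Dnmt1 promoter measured 66.99, 53.5 and 57.7 RPPM in C nB and 60.04 and 47.2 RPPM in KO nB.

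Germline genes, many of which are silenced by DNA methylation in somatic cells, held few open regions. Of 16 such genes, 7 had any region in the table, and 0 of their 24 regions were higher or lower at an unadjusted p under 0.05. Of 22 imprinted genes, 17 had a region, and 0 of 79 regions passed this limit. Interferon response genes had 0 of 64 regions in either direction, precursor B cell genes 0 higher and 1 lower of 80, immediate early genes 1 and 1 of 146, T cell markers 1 and 0 of 54, myeloid and dendritic cell markers 1 and 0 of 54, and natural killer cell markers 0 and 0 of 45. These counts are too low to set the share of a list apart from that over all regions.

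**Figure D4:**
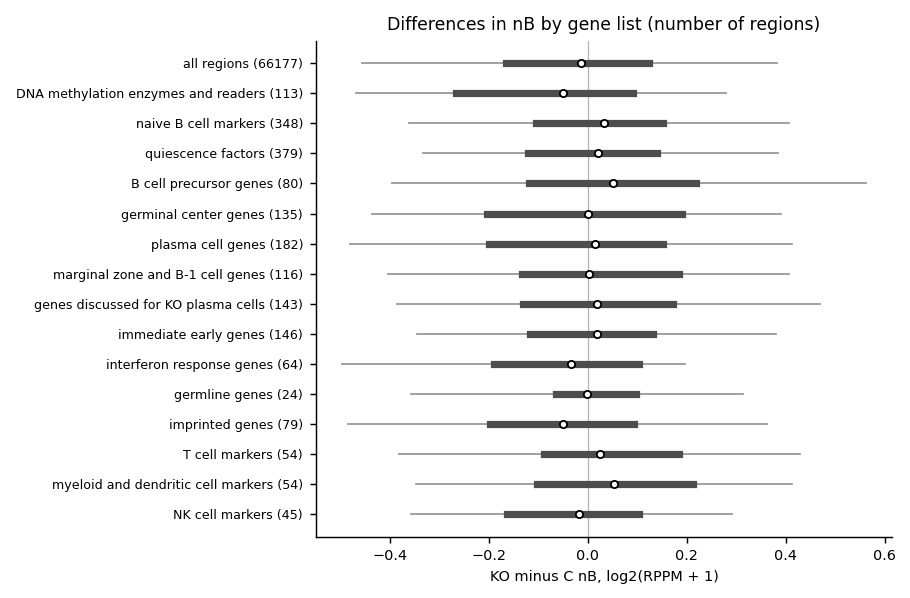
KO minus C differences in nB on the log2(RPPM + 1) scale for the regions of each gene list, with the number of regions in brackets. White points are medians, thick bars run from the lower to the upper quartile and thin bars from the 5th to the 95th percentile, and all list medians lie between -0.05 and 0.05.

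Departures of single libraries were then counted. A library was taken to stand apart at a region when it differed by at least 2-fold on the log2(RPPM + 1) scale from each of the 4 others, with at least 5 RPPM in 1 of them. The first C library stood apart as lower at 23 regions and higher at 26, the second at 9 and 1, the third at 20 and 4, the first KO library at 14 and 3 and the second at 16 and 16. These counts are of the same order in both genotypes. The C library that departed most at single regions did so at Sox1 (chr8:12481722-12482292), where the values were 13.6, 0.188 and 0.186 RPPM in C nB and 0.987 and 0.197 RPPM in KO nB, and at S100z (chr13:96264434-96265443), where they were 5.12, 0 and 0.186 RPPM in C nB and 0 and 0 RPPM in KO nB, both high in the first C library.

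The departures of the third C library were clustered. In the window at 111 Mb of chromosome 7, 8 of 32 regions were lower in it than in all others, more than for any other library and window. From chr7:110910726 to 111656858, between Olfr630 and Trim30d in the table's gene names, 10 of 35 regions were affected. The Trim12a promoter region (chr7:111463205-111464519), at an antiviral TRIM gene, measured 52.1, 47.7 and 3.16 RPPM in C nB and 48.9 and 55.7 RPPM in KO nB. A region near Trim5 (chr7:111439801-111440513) measured 39.7, 31.6 and 0 RPPM in C nB and 33.2 and 35.03 RPPM in KO nB. The region near Hbb-b1, a beta globin gene (chr7:110960649-110961187), measured 12.4, 13.8 and 0.186 RPPM in C nB and 14.8 and 13.8 RPPM in KO nB, and that near Olfr630, an olfactory receptor gene, 13.2, 16.6 and 0 RPPM in C nB and 10.5 and 15.4 RPPM in KO nB. Regions at or near 0 in the third C library lay between regions in which it matched the others, such as that near Trim12c (chr7:111501378-111502739), with 67.7, 71.97 and 57.9 RPPM in C nB and 60.4 and 72.6 RPPM in KO nB.

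The same 10 regions divided the other cell types. Their sum was 215, 225 and 22.9 RPPM in the 3 C nB libraries and 215 and 232 RPPM in KO nB. It was 18.03 and 14.99 RPPM in the C GCB pools and 146 to 374 RPPM in the 4 KO GCB pools, and 166, 152 and 11.2 RPPM in C BMPC and 170 and 169 RPPM in KO BMPC. Low values were therefore found in 4 of the 8 C libraries and in 0 of the 8 KO libraries. The labels give every mouse the same mixed background, and the cause of the split was not tested. For nB, the stretch gave no region at an unadjusted p under 0.05 (0 of 35), and there the other C libraries matched the KO libraries.

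**Figure D5:**
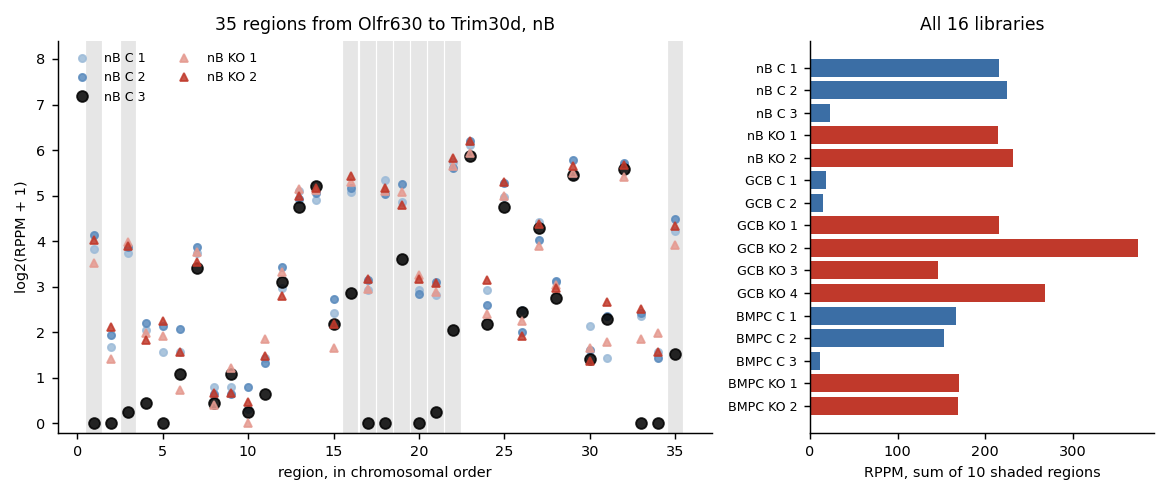
Left, the 35 regions of the chromosome 7 stretch in chromosomal order, with log2(RPPM + 1) of each nB library and shading on the 10 regions where the third C library (black) was lower than all others. Right, the RPPM summed over the 10 shaded regions in all 16 libraries, C in blue and KO in red, where 1 nB, 2 GCB and 1 BMPC library, all C, are at or below 22.9 RPPM.

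Finally, nB was examined at the regions that differed by genotype in plasma cells. The same limma fit called 60 regions higher (0.0907% of 66177) and 9 lower (0.0136%) in KO BMPC. Over the 60 regions, whose median log2 difference in BMPC was 1.76, the median in nB was 0.05, with 39 regions above 0 and 21 below (range -0.95 to 1.16). In nB, 46 of the 60 were bounded within 2-fold, beside 73.9% over all regions. At an unadjusted p under 0.05, 3 were higher and 0 lower, beside 0.63% and 1.04% over all regions. Both KO libraries lay above all C libraries in 14 and below them in 3, beside 9.38% and 11.0% over all regions. The higher regions thus made up a larger share of the 60 than of all regions, and this difference in share was not tested. Of these 60 regions, 37 averaged 5 RPPM or more in C nB, and 8 had at most 3 reads in every nB library, so that no change was measurable there. A region near Cep250, a centrosomal protein gene (chr2:155799756-155800232), was open in nB of both genotypes at 5.36, 3.96 and 6.7 RPPM in C nB and 4.44 and 6.298 RPPM in KO nB, and in BMPC measured 0.6503, 0.547 and 0.311 RPPM in C and 7.896 and 9.52 RPPM in KO BMPC. A region near Sept9, a septin gene (chr11:117169204-117169674), measured 1.95, 1.88 and 2.23 RPPM in C nB and 3.29 and 3.35 RPPM in KO nB, against 2.73, 2.19 and 1.56 RPPM in C and 15.5 and 17.5 RPPM in KO BMPC. A region at F2rl1, a protease-activated receptor gene (chr13:96282574-96283044), stayed at or below 0.731 RPPM in every nB library and measured 0, 0 and 0.156 RPPM in C and 7.17 and 5.79 RPPM in KO BMPC. An Npas3 region was likewise at or below 0.244 RPPM in nB, with 2.34, 1.09 and 1.25 RPPM in C and 10.9 and 14.9 RPPM in KO BMPC. At the 9 regions lower in KO BMPC the median in nB was 0.00, and all 9 were bounded within 2-fold. The Selplg region was the region of the 60 with the largest difference in nB, 1.16.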

How the data were processed

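ATAC-seq was analysed in 5 nB libraries, with 6 GCB and 5 BMPC libraries in the same fit. The submitters' processing notes list Bowtie 1.1.1, Picard 1.127, MACS2 2.1.0.20140616, edgeR 3.12.1 and mm9. The authors called peaks per sample (q of 0.01), merged them and deposited reads per region as reads per 1000000 reads in regions (RPM, here RPPM). The table's fold-change, p-value and FDR columns for 9 comparisons were not used. RPPM were whole multiples of 1 read in 100% of values.

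The main test was limma 3.58.1 (R 4.3.3) on log2(RPPM + 1), 1 mean per group for 6 groups, with a variance trend and Benjamini-Hochberg adjustment over 66177 regions. Recovered reads were tested with edgeR 4.0.16, DESeq2 1.42.0 and limma-voom, and interactions with the same fits. Counts were also simulated with the same dispersion for all regions and libraries, and 200 regions of at least 3 RPPM in nB were changed 4-fold. On these limma recovered 69% (0 false calls), edgeR's likelihood ratio test 90% (1 false) and its quasi-likelihood test 88% (1 false). Spread in the data is not uniform in this way, so these shares do not give the power of the tests on the data. Alternatives were pseudocounts, a level filter, scalings, fits of nB only or with no trend, and each library left out. Leaving libraries out of the likelihood ratio test was chosen after seeing the data. Named regions were those nearest the start or of smallest p in 16 gene lists, the 10 non-overlapping regions of smallest p in each direction with a mean of at least 3 RPPM, those called by a test of reads, the 5 largest gaps among C libraries, the 10 most open and the 5 largest rises in BMPC. Repeat searches, the chromosome 7 and 12 stretches and their extra regions were chosen after values were seen. The comparison and lists were chosen with earlier results of these data known. Replicates are separate mice. Genes are the table's nearest genes. Distances and overlaps at shifted regions are from the GENCODE annotation of mm9, except that distances to 9230109A22Rik and Erich4 are to the listed start of the gene. Results at a few genes, and 1 of the gene lists, are not reported here. Sequences were read with pysam 0.24.0.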

Additional observations from a re-analysis of the deposited data

Results flagged for a closer look

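At several named regions the genotype effect in nB differed from that in another cell type by edgeR's likelihood ratio test of the interaction (adjusted p no higher than 0.01), while limma called no interaction over all regions. Fitted values with a group at or near 0 depend on the prior count and are not bounds. Relative to BMPC, the log2 effect in nB was lower by -8.29 at the Ntn4 intron, where KO nB had no reads, by -11.25 at S100z, -7.93 at F2rl1, -3.93 at Cep250 and -2.11 at Sept9, all 4 of which were regions chosen for their rise in KO BMPC. It was lower by -3.84 at the Bre intron and higher by 1.97 at the region upstream of Bach2.

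Relative to GCB, the effect in nB was lower by -10.21 at Olfr630 and -9.08 at the Trim5 region, both in the chromosome 7 stretch where the C GCB pools were at or near 0, and by -4.20 at the Cep89 exon. At Gm2058, high in the second KO nB library only, it was higher by 6.37 than in GCB and by 5.11 than in BMPC.

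In KO GCB, 1 of the 4 libraries stood apart at the Ntn4 region, with 0.699 RPPM against 0 in the others (gap over range of 1). That value is a single read, below the floor of 3 reads (2.097 RPPM in that library), and with the others at 0 the gap over range is 1 by construction, so it is no measured difference.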

How the results depend on the processing

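No paired analysis was possible because the labels give the nB libraries no replicate number that C and KO share. The absence of limma calls held under every pseudocount, filter, scaling and fit tried, and at an adjusted p of 0.05. Leaving out each library gave 0 to 1 called higher and 0 to 1 lower (1 higher without C replicate 1 or 3, 1 lower without C replicate 1). Higher and lower calls numbered 3 and 4 by edgeR's quasi-likelihood test, also after its filter on low counts, 1 and 3 with library totals, 5 and 5 by its likelihood ratio test and 0 and 1 by DESeq2 and by limma-voom. Without each library in turn the likelihood ratio test gave 2 to 18 higher (most without C replicate 3, fewest without KO replicate 2) and 1 to 12 lower (most without C replicate 3, fewest without KO replicate 1).

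Regions higher at an unadjusted p under 0.05 numbered 1332 in nB libraries only, 1300 by quasi-likelihood, 1563 by likelihood ratio, 665 by DESeq2, 1623 by voom and 234 to 437 with a library left out, the fewest without KO replicate 2. Lower regions numbered 1411 with a pseudocount of 0.1, 424 after quantile normalization, 1927 in nB only, 1709 by quasi-likelihood, 2080 by likelihood ratio and 1596 by voom. Intervals within 2-fold numbered 29323 with a pseudocount of 0.1 and 29260 to 40877 with a library left out, the fewest without KO replicate 1, and 29705 without KO replicate 2. In these fits the lone KO library is assumed to vary like the other groups.

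The interaction with GCB gave 1 higher and 3 lower by likelihood ratio, and 0 to 1 lower with a library left out (1 without C replicate 3). That with BMPC gave 14 and 35 by quasi-likelihood, 48 and 129 by likelihood ratio, 7 lower with a pseudocount of 5 and 0 to 1 higher with a library left out (1 without C replicate 1). Over the 26 shifted regions, 441 alternative values kept their direction and 1 did not, the Gm2058 log2 difference, which ranged from -0.089 without KO replicate 2 to 4.24 without KO replicate 1. The causes were not tested. In the main fit, the 95% interval on the log2(RPPM + 1) scale lay within 2-fold in 49.7% of regions between 1 and 3 RPPM and in 51.1% under 1 RPPM. At these levels the added 1 RPPM narrows the difference, and at the other regions a 2-fold difference was not bounded.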
